A study of Mus musculus with 4 samples.

Results

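Tmem176a and Tmem176b are the 2 genes described here, of the 31053 genes in the count tables of sorted mouse bone marrow (BM) macrophages. They were taken by gene symbol and had been selected on their measured fold change between efferocytic and non-efferocytic BM macrophages in these same libraries. That difference is therefore described below without a test.

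Primary BM macrophages of young male C57BL/6J mice were grown with macrophage colony stimulating factor. Apoptotic RM1 cells, a prostate cancer line of the same mouse strain killed by UV light, carried the dye CFSE and were given to macrophages for 16 to 18 h. Cells positive for F4/80, a surface protein of mouse macrophages, and for CFSE were sorted as efferocytic, that is, as having taken up RM1 material. Cells positive for F4/80 only were sorted as non-efferocytic. The study also calls them BM macrophages alone, and the labels and methods do not state whether they had been exposed to apoptotic cells, so uptake and exposure cannot be told apart in a difference between the groups. Each of 2 experiments gave 1 single-cell 3′ RNA library per group, so n = 2 per group. The methods set a minimum number of independent mice for experiments with BM macrophages in general, but do not say which or how many mice are behind each library.

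TMEM176A and TMEM176B are small proteins that cross the membrane several times and are related to the MS4A family, whose best known member is CD20. They sit in membranes of the Golgi, endosomes and lysosomes, and TMEM176B has been described as a cation channel of dendritic cells and as a restraint on the NLRP3 inflammasome. Both genes are known from dendritic cells and macrophages, and TMEM176B has been tied to antigen presentation on MHC class II. Cd74 (the invariant chain) and H2-Ab1 (a chain of the class II molecule itself) mark that pathway below, and Gpr34, a receptor for lysophosphatidylserine, marks a macrophage state.

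The genes lie head to head on mouse chromosome 6 (GRCm38, the assembly also called mm10, GENCODE vM21). Tmem176b (ENSMUSG00000029810) runs on the minus strand from 48833818 to 48841496, and Tmem176a (ENSMUSG00000023367) on the plus strand from 48840919 to 48847071. Their annotated 5′ ends overlap by 578 bases, so a shared stretch holds the starts of both. The library kit counts RNA from its 3′ end, and the 3′ ends of the 2 genes are at the outer sides of the pair. RefSeq (GRCm38.p6) gives 2 promoter windows of Tmem176a and 3 of Tmem176b, each from 250 bases before to 50 after a start.

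These windows were searched on both strands for 4 motifs, since the members moved together and lie head to head. The core bound by PU.1, the master regulator of the macrophage lineage, was searched as GAGGAA. It occurred at 2 places, in both windows of Tmem176a and in 1 of the 3 windows of Tmem176b. The core occurs in 28.3% of all 32851 windows and 31.3% of genes. The windows with a match overlap one another and share these places, so they are not separate counts to set against those shares. The nuclear receptor half-site AGGTCA, the CCAAT box and the E-box CACGTG of MITF and TFEB had no match in any of the 5 windows. They occurred in 16.3%, 37.4% and 7.15% of all windows. The 30 bases around each match of the PU.1 core are shown on the plus strand, with the match in capitals, because both lie near the starts of the 2 genes. The first, at chr6:48841480-48841509, overlaps 1 annotated exon of each gene and holds the core on the minus strand, and the second, at chr6:48841568-48841597, overlaps exons of Tmem176a only.
First stretch: ccacccaggttcTTCCTCctgccagggctg
Second stretch: tccccggtcccaGAGGAAtcaggtaagaca
A match is a description of the letters and not a measured binding site.

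A barcode was kept as a cell if it had 200 genes or more, 1000 UMIs or more and no more than 10% of its UMIs from mitochondrial genes. This left 6695 to 13411 cells and 101216659 to 155224183 UMIs per library, with a median of 9600 to 11146 UMIs per non-efferocytic cell and 17171 to 17475.5 per efferocytic cell. One library differed from the rest, since the non-efferocytic one of experiment 2 had 36048 barcodes just under the limit on UMIs, against 1048 to 2046 in the others. The 2 libraries of experiment 2 shared 118 cell barcodes, against 14 to 23 for the other pairs of libraries. The 9 macrophage markers were all detected in each library, at summed levels of 6706 to 7681 CPM (the usual depth-scaled count, here of UMIs over all UMIs in the cells of a library) in non-efferocytic and 5193 to 5715 in efferocytic libraries. Fibroblast markers were also higher in non-efferocytic libraries (121 and 145 CPM against 46.5 and 52.0), as were the 10 neutrophil-lineage markers (3116 and 3423 against 729 and 982) and the 6 monocyte markers (224 and 247 against 79.1 and 61.9). The sum of the 7 lymphocyte markers went the other way (118 and 171 against 215 and 257). Nearly all of it came from 1 gene, so it does not show a rise of these markers as a set. The summed level of 5 epithelial markers was at most 9.0 CPM over all cells of a library, with Krt8 at 0 in both libraries of experiment 1. The study describes RM1 as a fibroblast-like line, so a low level of these markers does not show how much RM1 material was present.

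Both members were several-fold lower in efferocytic BM macrophages in both experiments. Tmem176a stood at 34.5 and 35.9 CPM in the non-efferocytic libraries of experiments 1 and 2 and at 4.43 and 4.53 CPM in the efferocytic ones. Tmem176b stood at 67.4 and 55.8 CPM against 8.69 and 6.55 CPM. The ratio of the CPM values was 7.80 and 7.93 for Tmem176a and 7.76 and 8.51 for Tmem176b. The group means were 35.2 ± 0.95 and 4.48 ± 0.069 CPM for Tmem176a and 61.6 ± 8.3 and 7.62 ± 1.5 CPM for Tmem176b (SD, n = 2). In the edgeR fit across 13869 genes with the experiment as a block, the log2 fold change (efferocytic vs. non-efferocytic) was −2.87 (SE 0.088) for Tmem176a and −2.92 (SE 0.090) for Tmem176b, the 53rd and 48th lowest of all genes tested. In that fit 38.9% of all genes were called (19.0% lower and 19.9% higher in efferocytic cells), so a call alone sets no gene apart. This split depends on the scaling, with 1847 genes higher and 3700 lower under library totals (median log2 fold change −0.12) and 6921 higher and 586 lower for UMIs per cell (median 0.60). Efferocytic cells held more UMIs each, and counted as UMIs per cell the levels fell less, by 5.10 and 4.43 times for Tmem176a and by 5.08 and 4.76 times for Tmem176b.

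**Figure D1:**
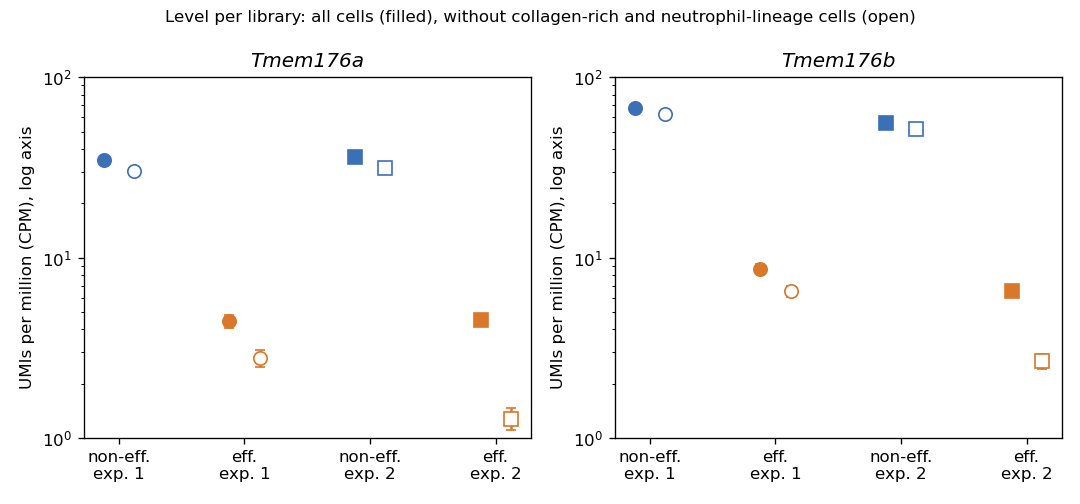
CPM (log axis) of Tmem176a and Tmem176b in the 4 libraries, over all cells (filled) and without collagen-rich and neutrophil-lineage cells (open), with 95% Poisson intervals. Efferocytic libraries lie between 4.43 and 8.69 CPM over all cells and between 1.27 and 6.51 CPM without those cells.

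The remaining signal of the efferocytic libraries lay in large part in very few cells that expressed collagen genes. Collagen-rich cells were defined, after the clusters described below had been seen, as cells with at least 2 genes of the list Col1a1, Col1a2, Col3a1, Dcn, Lum and Postn and at least 0.1% of their UMIs in it. They numbered 32 and 103 in the non-efferocytic and 17 and 30 in the efferocytic libraries of experiments 1 and 2. In these cells Tmem176a stood at 375 and 518 CPM where the library was non-efferocytic, beside 350 and 557 CPM where it was efferocytic. Tmem176b stood at 446 and 550 CPM against 465 and 666 CPM. The groups thus overlapped in this class, and the ratio of non-efferocytic to efferocytic levels ranged from 0.826 to 1.07 over the 2 genes and experiments.

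These cells were at most 0.768% of the cells of a library but held 37.9% and 72.1% of all Tmem176a UMIs of the efferocytic libraries of experiments 1 and 2, and 25.7% and 59.6% of the Tmem176b UMIs. In the non-efferocytic libraries they held 14.4% and 14.2% of the Tmem176a UMIs and 8.78% and 9.71% of the Tmem176b UMIs. All 6 listed fibroblast genes were detected among them in each library, at a summed 8641 to 10694 CPM. These genes define the class, so their level is no separate evidence of what the cells are. The macrophage markers were at 994 to 1838 CPM. The neutrophil-lineage markers were at 5816 CPM in the collagen-rich cells of the non-efferocytic library of experiment 1 and at 11.0 to 67.6 CPM in those of the others. Of the 7 dendritic cell markers at most 2 were detected in collagen-rich cells. H2-Ab1 was at 13.96 CPM in those of the non-efferocytic library of experiment 2 and at 3 UMIs or fewer in the others. In the non-efferocytic library of experiment 2, where these cells had a median of 3164 UMIs against 33429.5 to 41859 elsewhere, a limit of 0.05% or 0.2% in place of 0.1% gave 123 or 73 cells. In the other libraries these limits moved the number by at most 2 cells. A limit of 0.5% gave 24 and 48 cells in the non-efferocytic and 12 and 23 in the efferocytic libraries. What these cells are was not tested further.

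Without collagen-rich and neutrophil-lineage cells the difference between the groups was larger. Tmem176a then stood at 30.2 and 31.4 CPM against 2.78 and 1.27 CPM in the efferocytic libraries, a ratio of 10.9 in experiment 1 and 24.7 in experiment 2. Tmem176b stood at 62.8 and 51.3 CPM against 6.51 and 2.67 CPM, a ratio of 9.64 and 19.2. The efferocytic values of the 2 experiments, nearly equal for Tmem176a over all cells, then lay more than their Poisson intervals apart (2.49 to 3.09 and 1.10 to 1.47 CPM). In the edgeR fit the log2 fold change moved to −3.93 (SE 0.28) for Tmem176a and −3.67 (SE 0.24) for Tmem176b. This removal was chosen after the data were seen. Neutrophil-lineage cells (at least 5% of UMIs in 10 markers) held little of either gene in non-efferocytic libraries, at 12.2 and 10.1 CPM of Tmem176a and 28.2 and 17.7 CPM of Tmem176b. The 24 such cells of each efferocytic library had no UMI of either, with upper ends of the Poisson interval of 7.61 and 7.80 CPM.

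**Figure D2:**
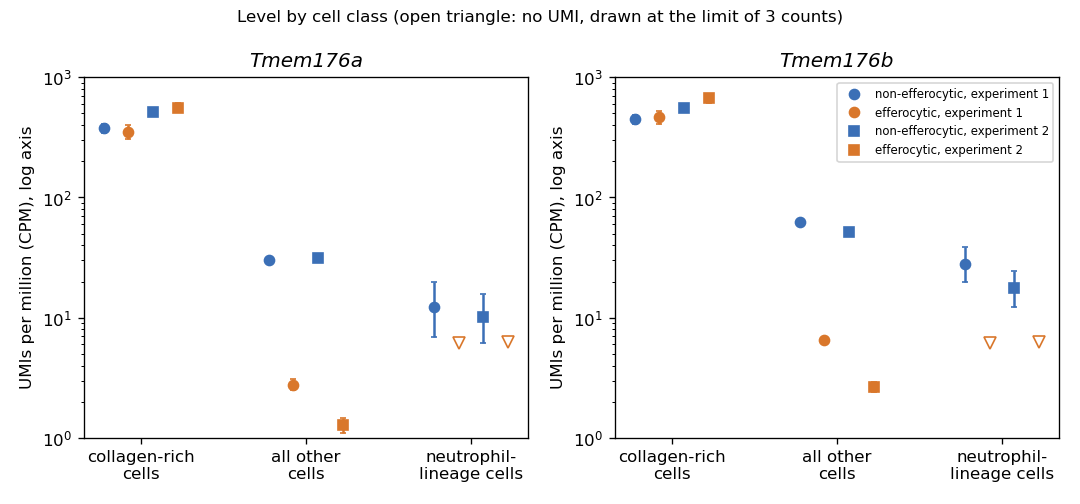
CPM (log axis) of each gene in collagen-rich, all other and neutrophil-lineage cells of each library, with 95% Poisson intervals and an open triangle at the limit of 3 counts where no UMI was found. Collagen-rich cells sit at 350 to 666 CPM in both groups, while all other cells are at 30.2 to 62.8 CPM in non-efferocytic and 1.27 to 6.51 CPM in efferocytic libraries.

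The ratio of Tmem176b to Tmem176a varied less between the groups than either level did. Each UMI is 1 RNA molecule, so the 2 genes were compared without a correction for length. There were 1.95 and 1.96 Tmem176b UMIs per Tmem176a UMI in the non-efferocytic and efferocytic libraries of experiment 1, and 1.55 and 1.45 in experiment 2. Without collagen-rich and neutrophil-lineage cells, the values were 2.08 and 2.35 in experiment 1 and 1.63 and 2.10 in experiment 2. The ratio was then higher in the efferocytic library of both experiments.

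RNA outside cells, read from barcodes of at most 100 UMIs, also held both genes. Tmem176a stood there at 43.0 and 41.0 CPM against 26.1 and 11.5 CPM, and Tmem176b at 70.0 and 46.7 CPM against 44.7 and 16.6 CPM (non-efferocytic against efferocytic). Efferocytic cells were below the free RNA of their own library for both genes in both experiments. Non-efferocytic cells were also below theirs, by less, for Tmem176a in both experiments and for Tmem176b in experiment 1, and were above it for Tmem176b in experiment 2. How much of the UMIs of a cell came from free RNA was not tested. With 10% of the UMIs of each library removed in the proportions of its free RNA, the fitted log2 fold change was −3.54 for Tmem176a and −3.52 for Tmem176b. In efferocytic cells of experiments 1 and 2, H2-Ab1 stood at 0.019 and 0.068 times its free RNA level, and Cd74 at 0.030 and 0.154 times. Removing 10% thus took more H2-Ab1 than these cells held, and more Cd74 in experiment 1, with counts set to 0. This setting therefore overcorrects efferocytic libraries, and its values are not estimates.

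Fewer efferocytic than non-efferocytic cells had a UMI of either gene. A Tmem176a UMI was found in 19.1% and 15.6% of non-efferocytic cells (experiments 1 and 2) and in 3.69% and 1.89% of efferocytic cells, although the latter were deeper. A Tmem176b UMI was found in 29.9% and 22.4% against 6.72% and 3.37%. In neutrophil-lineage cells, which serve as a check on free RNA, the share with Tmem176a was 10.8% and 9.40% in the non-efferocytic libraries, at a median of 16165 and 15607 UMIs. No such cell of the efferocytic libraries had one, where 24 cells allow a share of up to 12.5% at a limit of 3 counts. That limit is above the share of all efferocytic cells, so the check cannot decide anything for these libraries. With every cell thinned to 5000 UMIs, the share with Tmem176b was 20.7% and 17.2% against 3.45% and 1.39%, and the share with Tmem176a was 12.03% and 11.1% against 1.48% and 0.873%. Thinned cells that had any held 1.76 and 1.71 Tmem176b UMIs against 1.35 and 1.70, and 1.49 and 1.63 Tmem176a UMIs against 1.29 and 1.93. These values include the collagen-rich cells and cannot be below 1, so they do not show whether the level per expressing cell differed. The thinned comparison left out cells of fewer UMIs, 1099 and 3404 in the non-efferocytic and 544 and 505 in the efferocytic libraries.

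The 2 genes were found in the same cells more often than the product of their shares gives. In non-efferocytic libraries 14.1% (95% exact binomial interval 13.4 to 14.9) and 10.1% (9.55 to 10.6) of cells had a UMI of both, and in efferocytic libraries 2.15% (1.82 to 2.53) and 0.987% (0.787 to 1.22). These intervals, like all others here, cover counting error only. The share was 2.47 and 2.88 times the product of the single shares in non-efferocytic and 8.67 and 15.5 times in efferocytic libraries. Cell depth also moves this value. With collagen-rich cells removed and cells thinned to 5000 UMIs it was 7.22% and 6.11% against 0.521% and 0.178%, or 3.01 and 3.34 times the product against 12.004 and 24.5 times. The efferocytic values rest on 32 and 14 cells with both genes. The rarer a gene, the larger this multiple can be, so it does not compare the strength of co-detection between the groups. Among those thinned cells, a cell with Tmem176a also had Tmem176b in 61.7% and 56.7% of non-efferocytic and 39.5% and 28.0% of efferocytic cases. A cell without Tmem176a had Tmem176b in 15.05%, 12.2%, 2.81% and 0.971% of cases, in the same order of libraries.

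**Figure D3:**
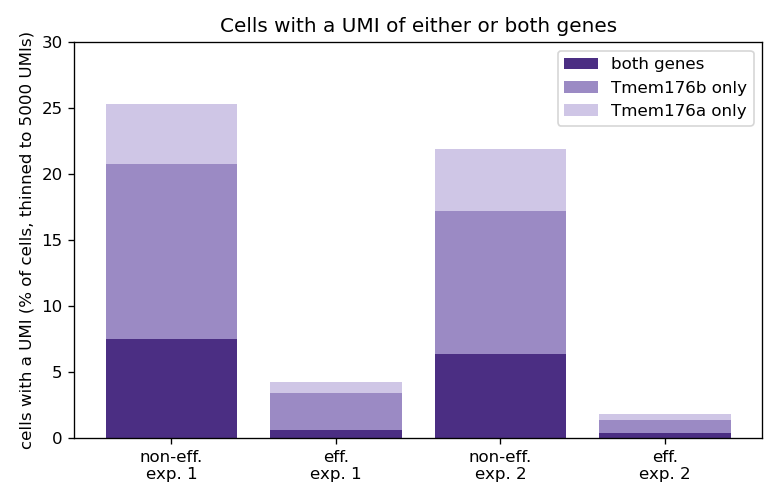
Share of cells, each thinned to 5000 UMIs, with a UMI of both genes, of Tmem176b only or of Tmem176a only. Cells with both are 7.48% and 6.40% in non-efferocytic and 0.650% and 0.405% in efferocytic libraries.

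Across the non-efferocytic cells both genes rose with the MHC class II UMIs of a cell. Cells were thinned to 5000 UMIs, collagen-rich cells were removed, and cells were binned by the sum of their H2-Ab1 and Cd74 UMIs. From cells with 0 to cells with 10 or more such UMIs, Tmem176a went from 0.141 to 0.360 UMIs per cell in experiment 1 and from 0.124 to 0.380 in experiment 2. Tmem176b went from 0.307 to 0.672 and from 0.215 to 0.639. Yet cells without any H2-Ab1 or Cd74 UMI were 75.7% and 67.9% of these cells and held 64.7% and 51.6% of the Tmem176b UMIs.

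Within bins of equal MHC class II UMIs the levels still differed between the groups. In cells without such a UMI, Tmem176a stood at 0.0127 and 0.00644 UMIs per cell in efferocytic libraries, 11.2 and 19.3 times below the non-efferocytic value, and Tmem176b at 0.0371 and 0.0118, 8.28 and 18.2 times below. In cells with 1 to 2 such UMIs Tmem176b was 4.48 and 14.5 times lower, and in cells with 3 to 9 it was 2.59 and 12.5 times lower. These ratios rest on few Tmem176b UMIs in efferocytic cells, 27 and 6 in the first of these bins and 15 and 3 in the second. Only 53 efferocytic cells of experiment 2 and 19 of experiment 1 had 10 or more MHC class II UMIs, and in the 53 cells Tmem176b stood at 0.208 (0.104 to 0.371) against 0.639 (0.586 to 0.695). Where the bins of both groups were weighted as in the non-efferocytic library, Tmem176a was 8.07 and 8.25 times and Tmem176b 5.94 and 8.90 times lower in efferocytic cells, against 11.2, 21.7, 8.56 and 20.7 times without weighting. Weighted as in the efferocytic library, the ratios were 9.56 and 16.7 for Tmem176a and 7.54 and 16.3 for Tmem176b. The first weighting leans on the few efferocytic cells of the highest bin, which had 0 and 8 Tmem176a UMIs and 2 and 11 Tmem176b UMIs in experiments 1 and 2. With the collagen-rich cells kept, the ratios at the non-efferocytic weights were 7.38 and 6.15 for Tmem176a and 5.70 and 6.71 for Tmem176b. Free RNA of the efferocytic libraries held Cd74 at 913 and 405 CPM, above the 27.4 and 62.5 CPM of their cells. Whether the MHC class II UMIs of the lower bins came from free RNA was not tested, so equal bins may not hold like cells.

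**Figure D4:**
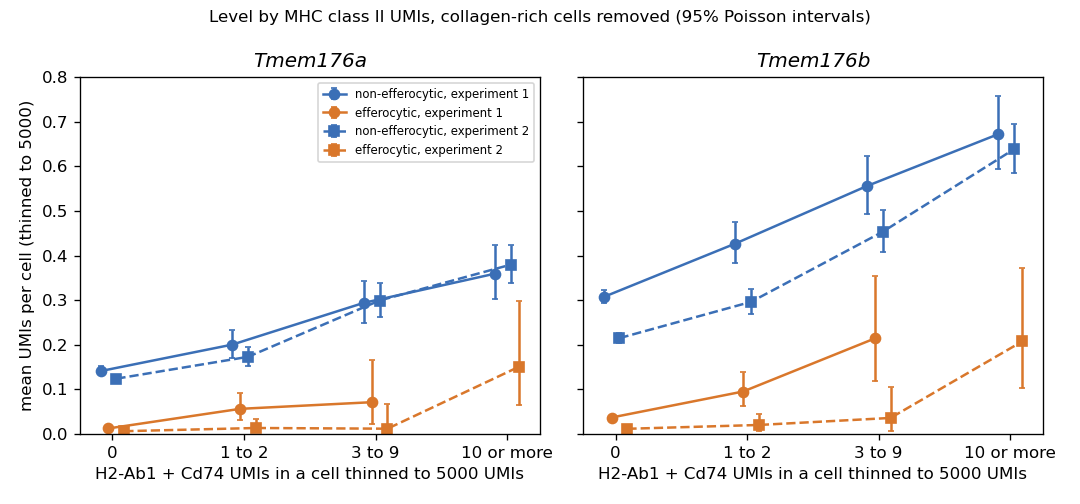
Mean Tmem176a and Tmem176b UMIs per cell (cells thinned to 5000 UMIs, collagen-rich cells removed, 95% Poisson intervals) by the H2-Ab1 and Cd74 UMIs of the cell, for bins of at least 20 cells. Non-efferocytic libraries climb from 0.307 and 0.215 to 0.672 and 0.639 Tmem176b UMIs per cell, and efferocytic libraries lie below them in each bin shown.

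Both genes were also higher in cells with a Gpr34 UMI. In the same thinned cells, non-efferocytic cells with a Gpr34 UMI held 0.259 and 0.220 Tmem176a UMIs, against 0.161 and 0.164 in cells without one. Tmem176b stood at 0.557 and 0.392 against 0.335 and 0.275 UMIs per cell. The ratio of cells with to cells without Gpr34 was thus 1.61 and 1.34 for Tmem176a and 1.66 and 1.42 for Tmem176b. The ratios between the ends of the MHC class II bins, 2.55, 3.06, 2.19 and 2.97, set 10 or more UMIs against 0. These contrasts are unlike, so they do not rank Gpr34 against MHC class II. Cells with 1 to 2 MHC class II UMIs held 0.200 and 0.173 Tmem176a UMIs, against 0.141 and 0.124 in cells with 0. Tmem176b stood there at 0.427 and 0.296 against 0.307 and 0.215. Among cells without an MHC class II UMI, Tmem176b was also higher with Gpr34 (0.485 against 0.287 and 0.329 against 0.208). Efferocytic cells with Gpr34 were few (120 and 65), with 8 and 12 Tmem176b UMIs in all.

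When cells of each experiment were clustered without the 2 genes, the levels differed widely between clusters. In experiment 1, 58.3% of the non-efferocytic cells fell in a cluster led by Gpr34, Ier3 and Ighm, which held 73.1% of their Tmem176b UMIs at 92.1 CPM. The cluster led by the MHC class II genes H2-Eb1, H2-Aa and H2-Ab1 had the highest Cd74 (1297 CPM in non-efferocytic cells) but Tmem176b at only 28.7 CPM. In experiment 2 MHC class II genes and Ccr2 led the main non-efferocytic cluster, with Tmem176b at 66.3 CPM. There the 122 efferocytic cells had more Cd74 than the 5190 non-efferocytic cells (2606 against 912 CPM) but less Tmem176b (30.3 against 66.3 CPM) and less Tmem176a (12.9 against 38.4 CPM). High MHC class II at the level of a cluster and high Tmem176 thus did not always coincide.

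A cluster of experiment 2 led by Cxcl10, Saa3 and Ccl5, with the interferon-induced genes Ifit1, Ifit2 and Ifit3 behind them, had Tmem176b at 234 CPM (219 to 249) and Tmem176a at 171 CPM in 302 non-efferocytic cells. For Tmem176b this was above every other cluster of that library except the mixed one described below. The interferon-led cluster of experiment 1 did not share this, with 70.7 CPM of Tmem176b, below the Gpr34-led cluster. The 53 cells of the fibroblast-like cluster of experiment 1 were led by Col1a1, Col1a2 and Sparc, with 3 fixed fibroblast markers among the 10 leading genes. They had 449 CPM of Tmem176b in non-efferocytic and 461 CPM in efferocytic cells. Of them 0% were among the cells with the highest doublet scores, as in clusters 11 and 13 of 99 and 25 cells. The score thus says little about doublets in small clusters. This cluster also held neutrophil-lineage markers at 4049 CPM and macrophage markers at 1536 CPM. Clusters led by Slamf8 and Mmp12 were low in non-efferocytic cells, at 14.3 and 8.77 CPM, as were those led by Trib3 and Phgdh in experiment 1 (4.62 CPM) and by Prss46 and Phgdh in experiment 2 (12.7 CPM).

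The difference between the groups was also present within most clusters. Of clusters with at least 50 cells of each library, Tmem176b was lower in efferocytic cells in 10 of 10 in experiment 1 and 10 of 11 in experiment 2, and Tmem176a in 10 of 10 and 9 of 11. The exception for both was the cluster of experiment 2 that mixed neutrophil-lineage and collagen-expressing cells, with 237 CPM of Tmem176b in non-efferocytic and 426 CPM in efferocytic cells. The epithelial markers were also gathered in this cluster, at 485 CPM against at most 20.2 CPM in any other, while the collagen-rich cells of experiment 2 had them at 11.8 and 2.20 CPM. The other exception, for Tmem176a, was a T cell receptor-led cluster with no Tmem176a UMI in 71 non-efferocytic cells. Cells of the groups fell mostly in different clusters, so many of these comparisons rest on few cells of 1 group. Some rest on very few UMIs, as in cluster 10 of experiment 1, with 1 against 0 for Tmem176a and 4 against 3 for Tmem176b. Low-depth clusters were counted too, such as cluster 6 of experiment 1 (median 1374 UMIs) and clusters 6 and 7 of experiment 2 (1173 and 1534). The part of free RNA in their levels was not tested.

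**Figure D5:**
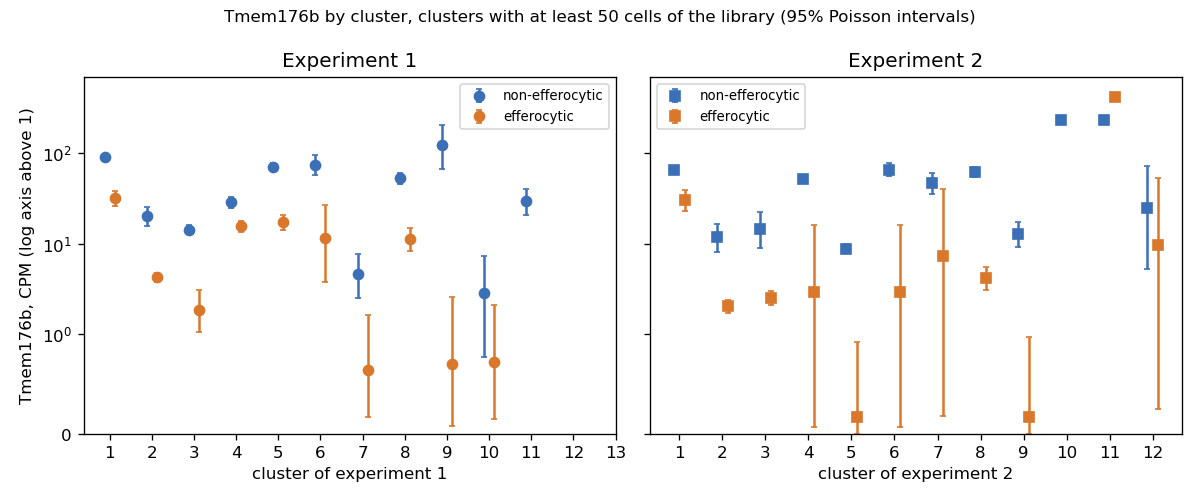
Tmem176b CPM (log axis above 1) in each cluster with at least 50 cells of the library, with 95% Poisson intervals, for experiments 1 and 2. Efferocytic values lie below non-efferocytic ones except in cluster 11 of experiment 2 (426 against 237 CPM), and cluster 10 of experiment 2 is shown for non-efferocytic cells alone (234 CPM).

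Across cells, Tmem176b and Tmem176a had a mean Pearson correlation over the 4 libraries of 0.58 on the scale ln(1 + UMIs per 10000), and of 0.49 without collagen-rich cells. Genes were ranked for likeness to Tmem176b only with a UMI in at least 5% of the cells of every library. This left out Tmem176a itself and genes of rare cells. It also left out H2-Ab1 (2.78% and 3.33% of efferocytic cells) and Gpr34 (4.90% and 2.51%), so their absence below is no result. The genes compared were the 8419 that passed. Of these the 10 most like Tmem176b were Rcn3, Ighm, Hpgd, Aif1, Fcgrt, Ly6e, Ctsc, Serinc3, Axl and Cd74, with mean correlations from 0.16 down to 0.13, which are weak and share the depth of the cells. Aif1 (IBA1) is a macrophage marker, Fcgrt the neonatal Fc receptor, Ctsc a lysosomal protease and Axl a receptor for apoptotic cells. Without collagen-rich cells 7 of the 10 were again among the 10 highest, Ly6e was at rank 15, Rcn3, which acts in the endoplasmic reticulum, dropped from rank 1 to rank 954, and Axl to rank 102. The genes least like Tmem176b were Lgals3 (galectin-3), Gpnmb and Ctsd (a lysosomal protease), at −0.23, −0.20 and −0.19. Without collagen-rich cells they were Lgals3 (−0.17), Atp6v0d2 (−0.15) and Gpnmb (−0.15), and Ctsd was no longer among the lowest 5.

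The other genes of the MHC class II list were mostly lower in efferocytic BM macrophages. Of 12 tested genes 9 were lower and 1 was higher, beside 19.0% lower and 19.9% higher of all genes, with a median log2 fold change of −1.52, beside −0.018 over all genes tested. Ciita, the master regulator of class II transcription, had 6.60 and 7.91 CPM against 0.568 and 0.425 CPM, a log2 fold change of −3.77 (SE 0.20, edgeR adjusted p = 3.35e-05). H2-Ab1 (−3.55, SE 0.099, edgeR adjusted p = 3.15e-06), H2-Eb1 (−3.55, SE 0.13, edgeR adjusted p = 9.23e-06) and Cd74 (−3.26, SE 0.12, edgeR adjusted p = 7.75e-06) were each lower in both experiments, with the Cd74 call lost when free RNA was removed. That setting left no H2-Ab1 UMI in either efferocytic library and no Cd74 UMI in the efferocytic library of experiment 1. Lgmn, an endosomal protease, was higher, by 0.43 (SE 0.13, edgeR adjusted p = 0.032), a call lost without the block, with genes of at least 10 CPM, with free RNA removed and without collagen-rich and neutrophil-lineage cells. Gpr34 fell by 2.75 on the log2 scale (SE 0.11, edgeR adjusted p = 9.53e-06).

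Most tested genes of the MS4A family, the relatives of the 2 genes, were also lower. Of 11 members tested 9 were called, all lower, beside 19.0% of all genes, with a median log2 fold change of −1.13. Scaled per cell, 5 were lower and 1 higher, with a median of −0.51 beside 0.60 over all genes. Ms4a4a had 7.70 and 6.27 CPM against 2.72 and 0.831 CPM (−2.05, SE 0.30, edgeR adjusted p = 0.0016). Ms4a4c changed by −1.47 (SE 0.26, edgeR adjusted p = 0.0035) and Ms4a3, a gene of granulocyte progenitors, by −1.45 (SE 0.12, edgeR adjusted p = 0.00015). The most abundant members changed less, with Ms4a7 (mean 1128 CPM) at −0.38 and Ms4a6c (277 CPM) at −0.78. Ms4a6d (202 CPM) was at −0.033 and was not called. Without the block Ms4a4a and Ms4a4c were not called, nor was Ms4a4c by DESeq2 or with free RNA removed.

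Genes of the NLRP3 inflammasome list moved in both directions. The list also holds Aim2, Nlrc4 and Naip5, sensors of other inflammasomes, and Il1a. Among its genes called higher, only Casp1 is a part of the NLRP3 inflammasome itself. Of 15 tested, 7 were lower and 3 higher (all genes 19.0% and 19.9%), with a median of −0.14. Scaled per cell, 1 was lower and 6 were higher, with a median of 0.48 beside 0.60 over all genes. Il1b, the cytokine that the inflammasome matures, was at 2.29 and 3.56 CPM against 0.176 and 0.296 CPM (−3.53, SE 0.19, edgeR adjusted p = 3.83e-05). The sensor Nlrp3 changed by −0.92 (SE 0.11, edgeR adjusted p = 0.00064) and Txnip by −0.80 (SE 0.13, edgeR adjusted p = 0.0026). Aim2, the DNA sensor, changed by 0.37 (SE 0.078, edgeR adjusted p = 0.0082) and Casp1, the inflammasome protease, by 0.27 (SE 0.080, edgeR adjusted p = 0.032). The third, Il1a, the cytokine related to Il1b, was under the level set for naming genes and is given because it completes the count, at 0.217 and 0.571 CPM against 1.16 and 1.66 CPM (1.98, SE 0.26, edgeR adjusted p = 0.0011), a call lost with free RNA removed. Scaled per cell, Nlrp3 and Txnip were not called, and without the block Txnip, Aim2 and Casp1 were not. The Casp1 call was also lost by DESeq2, with library totals, with genes of at least 10 CPM, with free RNA removed and without collagen-rich and neutrophil-lineage cells.

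Of 13 conventional dendritic cell genes tested, 9 were lower and 2 higher (all genes 19.0% and 19.9%), with a median of −0.96. Scaled per cell, 4 were lower and 2 higher, with a median of −0.34 beside 0.60 over all genes. Fscn1 (−1.79, SE 0.15, edgeR adjusted p = 0.00016), the lectin Clec10a (−1.73, SE 0.096, edgeR adjusted p = 4.03e-05) and the costimulator Cd86 (−1.23, SE 0.12, edgeR adjusted p = 0.00028) fell most among those over 1 CPM, with the Fscn1 call lost when free RNA was removed and the Cd86 call lost when scaled per cell. Id2 (0.74, SE 0.14, edgeR adjusted p = 0.0050) and Itgax (0.57, SE 0.15, edgeR adjusted p = 0.018) were higher, both calls being lost without the block and with free RNA removed. The defining dendritic cell markers were near 0, at a summed 0.8 CPM or less in each library.

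Most of the neighbouring genes were not called. Of 21 annotated protein-coding genes within 250 kb, 13 were tested, and 1 was lower and 1 higher, or 15.4% called beside 38.9% of all genes. The lower one, Gimap6, 126 kb away and a gene of lymphocytes, had 0.405 and 0.708 CPM against 0.0480 and 0.374 CPM (−1.44, SE 0.42, edgeR adjusted p = 0.028), a call lost by DESeq2, without the block and scaled per cell, and the gene was not tested with free RNA removed. The higher one was Gpnmb, 189 kb away, a glycoprotein of lysosome-rich macrophages, which stood at 3283 and 3210 CPM against 6700 and 6984 CPM (1.18, SE 0.16, edgeR adjusted p = 0.0013). The remaining 11 were not called, with log2 fold changes of 0.29 for Repin1, 0.16 for Zfp775, 0.20 for AI854703, −0.27 for Gimap9, −0.22 for Gimap4, −0.10 for Gimap7, −0.53 for Gimap1, −0.48 for Gimap5, −0.28 for Gimap3, 0.095 for Malsu1 and −0.064 for Igf2bp3. AI854703 and the uncalled Gimap genes had only 26 to 103 UMIs each over the 4 libraries, so a change in them could hardly be called. Aoc1, the nearest beyond the pair at 25.8 kb, had no UMI in the cells.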

How the data were processed

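The values the authors deposited are UMI counts, not normalized and for all barcodes, made on mm10 by Cell Ranger (version 3.0.0 in the submitters' processing notes and the headers of experiment 1, 3.1.0 in those of experiment 2). Samples were grouped by the labels, with the experiment as replicate number. Summed counts were tested with edgeR 4.0.16 (quasi-likelihood, TMM, filterByExpr, experiment as block, R 4.3.3) with Benjamini-Hochberg adjustment over 13869 genes and a threshold of 0.05, checked on simulated counts. Libraries of 1 experiment deviated together (r = 0.672 over 7097 genes), and the block is the experiment given by the labels. Since the sources do not tie mice to libraries, p-values measure only the spread between these libraries, which may be technical. The members, gene lists and motifs were chosen with earlier results of these data known. The result of 1 gene list is not reported here.

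Genes named were the members, H2-Ab1, Cd74, Gpr34, up to 3 called genes of each list and direction with at least 1 CPM, tested neighbours and the 10 genes most like Tmem176b. The most abundant MS4A genes were also named. Gpr34-led and other clusters (Leiden, resolution 0.5, 20 components of 5000 genes, scanpy 1.11.5) left out the members. Intervals are exact at 95%. Scrublet's automatic limit marked at most 1 cell per library and was not used, and doublets were kept. Alternatives were no block, DESeq2 1.42.0, 2 scalings, 2 gene filters, cell filters, free RNA removed, cells with shared barcodes or high Scrublet scores removed, cell classes removed and each library left out.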

Additional observations from a re-analysis of the deposited data

How the results depend on the processing

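No alternative turned the direction of a result of the members. The log2 fold change of Tmem176a (−2.87) and Tmem176b (−2.92) was −2.97 and −3.02 with library totals, −2.25 and −2.30 per cell, −2.96 and −3.01 with genes of at least 10 CPM, −3.54 and −3.52 with free RNA removed, −3.91 and −3.65 without collagen-rich cells, −3.93 and −3.67 without neutrophil-lineage cells too. For Tmem176a it was also −2.85 without a gene filter, −2.76 at most 5% mitochondrial UMIs, −2.82 without the 8% of cells with the highest Scrublet scores and −2.89 without shared barcodes. Leaving out 1 library, without the block, gave −2.89 to −2.83 and −3.16 to −2.68.

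The count of genes called (5397) was 2358 without the replicate block, 3338 by DESeq2, 3026 with genes of at least 10 CPM and 2339 with free RNA removed. Without the block, 5 MS4A, 4 inflammasome and 6 dendritic cell genes and 1 neighbour were called, and the block changed no other list reported here by more than 1.5 times. With free RNA removed these were 5, 6, 5 and 1, and Cd74, Ms4a4c and Fscn1 lost their calls. With genes of at least 10 CPM, 4 of 5 tested MS4A genes, 6 of 6 dendritic cell genes and 1 of 3 neighbours were called. Scaled per cell, 6 dendritic cell genes and 4 neighbours were called, and Gsdmd (0.29), Naip5 (0.21), Irf8 (0.12) and Ms4a7 (0.24), all called lower with TMM, had positive log2 fold changes that were not called, and DESeq2 called 1 neighbour. Leaving out 1 library gave 0 to 2933 genes called, 2 without the non-efferocytic library of experiment 1 and 0 without that of experiment 2 (edgeR, with 2999 and 3494 at an unadjusted p under 0.05), 2933 and 1204 without the efferocytic library of experiment 1 or 2. These fits had 3 libraries, the lone one assumed to vary like the others. The lists gave 0 to 8 (MHC class II), 0 to 8 (MS4A), 0 to 7 (inflammasome), 0 to 6 (dendritic cell) and 0 to 2 (neighbours). The cause of these differences was not tested.

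The share of cells with both genes (14.1%, 2.15%, 10.1% and 0.987% in the non-efferocytic and efferocytic libraries of experiments 1 and 2) was 7.48%, 0.650%, 6.40% and 0.405% after thinning, which keeps fewer UMIs per cell. It was 15.4% and 12.7% in non-efferocytic cells of at least 5000 UMIs and 0.692% in the efferocytic library of experiment 2 without collagen-rich cells. In cells thinned to 5000 UMIs, collagen-rich cells kept, the ratio between the highest and lowest MHC class II bin in non-efferocytic cells was 2.42 and 2.71 for Tmem176a and 2.14 and 2.77 for Tmem176b. It was 2.77 for Tmem176a of experiment 1 and 3.40 for Tmem176b of experiment 2 after thinning to 2000 UMIs, and 3.06 for Tmem176a of experiment 2 without collagen-rich cells. Doublets were removed only by the highest Scrublet scores, as the automatic limit marked too few cells.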
